A study of Homo sapiens with 10 samples.

Results

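The collagen genes of 2 human bladder cancer cell lines were compared. The members were all protein-coding genes whose symbol is COL, a number, A and a number, and the rule found 44 of the 61533 genes in the tables of counts. They fall into 11 fibrillar collagens, 9 network collagens and 24 others, the last made of 10 FACIT collagens, 5 beaded-filament collagens, 4 transmembrane collagens, 2 multiplexins, the anchoring-fibril collagen COL7A1 and 2 unclassified collagens. RNA-seq libraries came from T24, an established bladder cancer line, and from T24R2, a cisplatin-resistant line that was raised from T24 cells by repeated passage in cisplatin. Each line gave 5 libraries on day 3 of culture. The methods have T24R2 kept in cisplatin, while the sample labels list the same medium for both lines, so the line and the drug cannot be told apart. T24R2 is a single derived line.

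Collagens are built from alpha chains that wind into a triple helix, and each chain carries long runs of the repeat Gly-X-Y, in which glycine returns at a fixed spacing. Several collagen types need chains from more than 1 gene, as type IV does from COL4A1 and COL4A2 and type VI from COL6A1, COL6A2 and a longer partner chain. Fibrillar collagens give connective tissue its tensile strength, and network collagens such as type IV form the sheet of basement membranes on which epithelia rest. The anchoring-fibril collagen and some transmembrane collagens help to attach epithelia.

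The repeat can be read in the coding exons. The 54-base exons below were taken from the canonical transcripts of GENCODE release 44 on hg38 and are shown 5′ to 3′ in the sense of the gene, with the glycine codons in capitals. They come from the most abundant fibrillar gene and from the pair of network genes that fell most among the abundant collagens. In all 3 exons a glycine codon opens each group of 9 bases.
COL5A2, exon 29, chr2:189062865-189062918, minus strand: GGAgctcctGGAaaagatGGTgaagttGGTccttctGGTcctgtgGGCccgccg
COL4A1, exon 17, chr13:110205353-110205406, minus strand: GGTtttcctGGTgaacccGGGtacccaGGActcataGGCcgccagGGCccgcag
COL4A2, exon 17, chr13:110445829-110445882, plus strand: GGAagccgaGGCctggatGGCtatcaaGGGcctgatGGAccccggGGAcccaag
The longest unbroken run of the repeat was 339 triplets in the coding sequence of COL5A2, 40 in COL4A1, 66 in COL4A2 and 87 in both COL6A1 and COL6A2. COL5A2 had 24 coding exons of exactly 54 bases, against 2 in COL4A1 and 1 in COL4A2. The type IV sequences were broken into 22 blocks of at least 5 triplets in COL4A1 and 24 in COL4A2, against 2 blocks in COL5A2.

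COL4A1 and COL4A2 lie head to head on chromosome 13 and are read in opposite directions. The 126 bases between their RefSeq start sites (GRCh38.p14), which both genes have upstream of them, are shown because these were the abundant collagens that fell most. Capitals mark the motifs CCAAT and GGGCGG, which were searched on both strands together with TATAAA.
COL4A1-COL4A2 interval, chr13:110307158-110307283, plus strand: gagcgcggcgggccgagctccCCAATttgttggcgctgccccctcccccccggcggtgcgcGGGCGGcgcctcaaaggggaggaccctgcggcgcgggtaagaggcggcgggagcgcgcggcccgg
The bases upstream of COL9A2, the tested collagen with the largest log2 fall, and of COL6A2, the collagen with the highest level per kilobase, follow with the same marking (the reverse complement CCGCCC of GGGCGG is also in capitals).
COL9A2, chr1:40317287-40317536, minus strand: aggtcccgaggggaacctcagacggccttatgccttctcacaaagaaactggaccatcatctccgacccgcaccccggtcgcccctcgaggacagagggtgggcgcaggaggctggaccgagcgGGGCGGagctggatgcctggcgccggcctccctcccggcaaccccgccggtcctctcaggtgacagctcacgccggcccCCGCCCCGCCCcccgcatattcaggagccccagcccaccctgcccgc
COL6A2, chr21:46097862-46098111, plus strand: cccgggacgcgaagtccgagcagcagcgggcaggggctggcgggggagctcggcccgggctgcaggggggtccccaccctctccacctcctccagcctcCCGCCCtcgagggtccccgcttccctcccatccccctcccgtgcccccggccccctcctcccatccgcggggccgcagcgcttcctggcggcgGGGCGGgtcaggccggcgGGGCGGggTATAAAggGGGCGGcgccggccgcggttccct
The shared type IV interval held 1 CCAAT and 1 GGGCGG and no TATAAA, and 80.2% of its bases were G or C. Its last bases lie in the first exon of some annotated COL4A2 transcripts, and parts of the COL9A2 stretch lie in alternative non-coding transcripts of that gene. The COL9A2 stretch held 3 copies of GGGCGG and the COL6A2 stretch 4 copies and 1 TATAAA. Of the 44 windows of 300 bases that RefSeq gave for 32 of the members, 54.5% held GGGCGG, 31.8% CCAAT and 18.2% TATAAA. Among all 35116 such windows the shares were 45%, 34.6% and 11.5%. A match describes the letters of the window only.

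Total counts were 9257843 to 10247941 in the T24 libraries and 9591379 to 10840954 in the T24R2 libraries. T24R2 was tested against T24 by edgeR's quasi-likelihood fit over all 16181 genes that passed the count filter, and a gene was called where its Benjamini-Hochberg adjusted p was under 0.05 and its log2 fold change lay beyond 0.5 in either direction. By that rule 51.4% of all genes tested were called, 24.9% higher and 26.5% lower in T24R2, so a call by itself is common here. Nothing states that the 5 libraries of a line came from separate cultures, so p-values measure the spread between libraries. As markers of the labelled tissue, 8 of 13 urothelial genes had over 3 counts in every T24 library and 5 in every T24R2 library, with a summed level of 4938 to 5671 and 3012 to 3217 CPM (TMM-normalized counts scaled to a common library size), while UPK1B, UPK3A and KRT20 had at most 3 counts in each library. Most of that sum was KRT7, KRT8 and KRT18, with means of 2242, 1541 and 1112 CPM in T24 and 1370, 1009 and 690.9 in T24R2. All 7 tested urothelial markers were lower in T24R2, beside 26.5% of all genes. KRT19 went from 267 to 0.0887 CPM and GATA3 from 22.1 to 0.214, and both met the count filter through T24 only. Of 5 endothelial markers, 2 were above that floor of 3 counts in T24 and 1 in T24R2, with summed levels of 226 to 278 and 1.60 to 2.78 CPM. Nearly all of that sum in T24 was CDH5, with a mean of 239 CPM in T24 and 0.559 in T24R2, while PECAM1 was at 5.36 and 1.18 CPM and VWF, TEK and CLDN5 stayed under 1 CPM in every library. Of 8 fibroblast markers, 3 and 0 were above it, with 4.73 to 6.95 and 0.197 to 0.713 CPM. FAP, DPT and PI16 were at the floor in both lines. Of 5 leukocyte markers, 1 and 0 were above it, with summed levels of 0.540 to 1.79 and 0.197 to 1.34 CPM. The part of these differences in the collagen results was not tested.

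Both lines put most of their collagen transcripts into few genes, and T24R2 had a smaller and differently composed collagen output. The 44 genes took 0.506% ± 0.0111 of all counts in T24 (SD, n = 5) and 0.371% ± 0.0113 in T24R2 (SD, n = 5). The shares ran from 0.498% to 0.525% in T24 and from 0.363% to 0.390% in T24R2, so the lines did not overlap. Network collagens made 32.3% ± 0.559 of the collagen counts of T24 and 10.0% ± 0.402 of those of T24R2. Against all counts, network collagens went from 0.164% ± 0.00418 to 0.0372% ± 0.00124, fibrillar collagens from 0.0575% ± 0.00205 to 0.0643% ± 0.00176, and the other collagens from 0.285% ± 0.00688 to 0.270% ± 0.00976. The network class was the 1 class whose fall came near the fall of the total. These shares are of counts before TMM scaling. TMM factors were 0.936 to 0.951 in T24 and 1.041 to 1.067 in T24R2, so T24R2 stands higher against T24 in shares than in scaled levels. COL5A2, the most abundant fibrillar gene, overlapped between the lines after scaling (log2 fold change 0.06). COL4A1 and COL4A2 alone went from 8.27% and 18.5% of collagen counts in T24 to 0.967% and 2.46% in T24R2. COL6A1 and COL6A2 together were the largest item in both lines, with 16.7% and 19.6% of collagen counts in T24 and 23.5% and 30.6% in T24R2. In bulk libraries, fewer cells with a transcript and less of it per cell cannot be told apart.

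**Figure D1:**
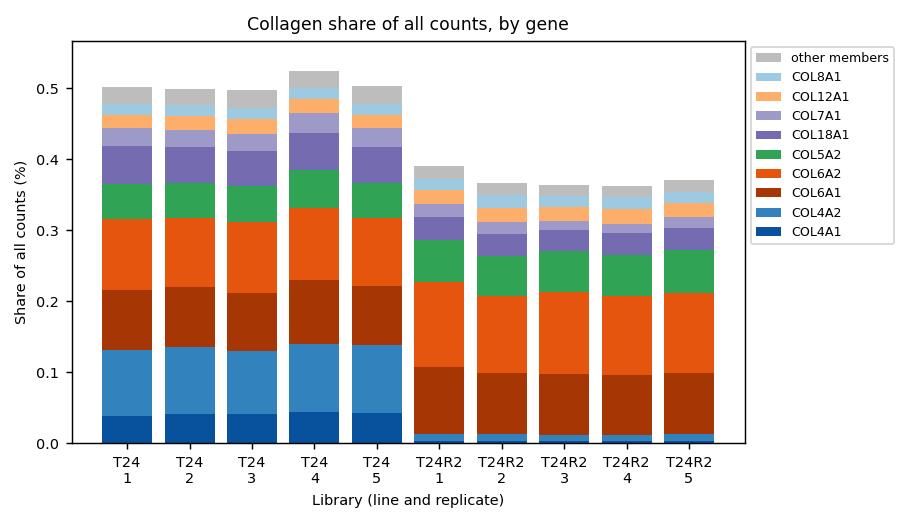
Share of all counts on the 44 collagen genes in each of the 10 libraries, in percent, stacked by gene with 9 abundant genes in colour and the rest in grey. The bars of T24 reach 0.498% to 0.525% and those of T24R2 0.363% to 0.390%, and the COL4A1 and COL4A2 segments at the base are thin in every T24R2 library.

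Levels were compared between genes as TMM-normalized CPM per kilobase of exon. In T24 the order was led by COL6A2 with 197 ± 3.95 CPM per kb, COL6A1 with 162 ± 5.23 and COL5A2 with 72.6 ± 2.73 (SD, n = 5), followed by COL18A1, COL4A2, COL4A1, COL7A1, COL8A1, COL12A1 and COL4A5. The libraries of each of these genes lay above those of the next without overlap, and the first pair that overlapped was COL27A1 and COL4A6, with 5.04 ± 0.365 and 4.47 ± 0.252. In T24R2 the first 4 places were the same, with COL6A2 at 202 ± 8.62, COL6A1 at 149 ± 6.85, COL5A2 at 75.7 ± 2.16 and COL18A1 at 34.7 ± 1.16 CPM per kb. COL4A2 stood in place 8 there with 4.49 ± 0.243, not separated from COL4A5 with 4.15 ± 0.300, and COL4A1 in place 11 with 2.32 ± 0.155, not separated from COL4A6 with 2.12 ± 0.151. The lengths are those of all exons of a gene. With the length of the canonical transcript instead, which was chosen after seeing the data, COL4A2 stood in place 3 in T24 with 154 CPM per kb and COL5A2 in place 5 with 77.8, and the neighbours COL7A1 and COL8A1 in T24 and COL7A1 and COL12A1 in T24R2 changed places.

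Of the 44 members, 22 passed the count filter and were tested. Among them 11 were lower in T24R2, where the background is 26.5% of all genes, 3 were higher, where it is 24.9%, and 8 were not called. The CPM of the lines did not overlap for 16 of the 22, beside 61.2% of all genes tested, which is near the same share. The median log2 fold change of the 22 was -0.60, and that of all genes was 0.01. The filter asked for 5 libraries, and 6 of the 22 met it through 1 line only. COL6A3, COL4A4 and COL11A2 passed through T24R2, with 0, 1 and 2 T24 libraries over the filter, and COL8A2, COL9A2 and COL1A1 passed through T24, with 0, 0 and 3 T24R2 libraries over it. Low genes of this kind had to differ to be tested, so these counts and the fold changes and p-values of the 6 genes are a description. All 3 higher calls are among them, and of the 16 genes that met the filter in both lines 8 were lower and 0 were higher. Of all 13559 genes that met it in both lines, 3366 were lower and 2983 higher. By class, 5 of 7 tested network collagens were lower and 1 higher, 1 of 4 fibrillar collagens was lower and 1 higher, and 5 of 11 others were lower and 1 higher.

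**Figure D2:**
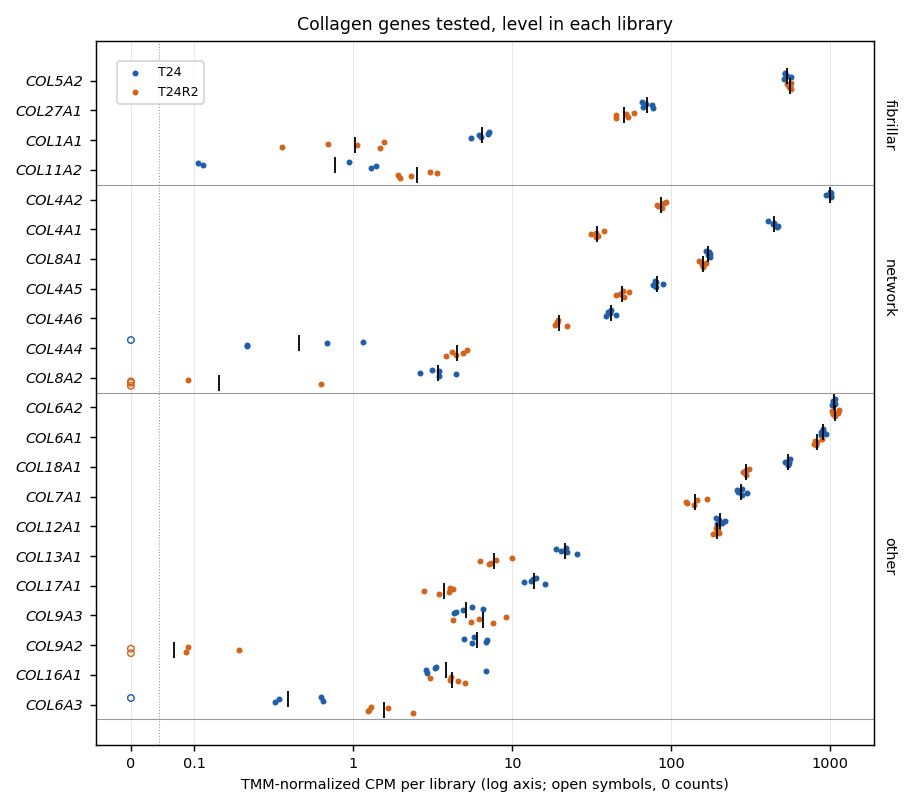
TMM-normalized CPM of the 22 tested collagen genes in each library, on a log axis, by class; dots are libraries, black ticks the means of 5 and open symbols libraries without a count. The 2 lines lie far apart for COL4A1, COL4A2, COL9A2 and COL8A2, and their dots overlap for COL6A1, COL6A2, COL5A2 and COL12A1.

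Among the network collagens, the basement membrane chains COL4A1 and COL4A2 fell to 7.67% and 8.72% of their T24 level. COL4A1 (ENSG00000187498.16, chr13:110148963-110307157, minus strand) had 3904, 4219, 3812, 4384 and 4270 counts in T24 and 409, 385, 326, 386 and 341 in T24R2. Every T24R2 library was far below every T24 library. Its level went from 444 ± 25.6 to 34.0 ± 2.27 CPM (SD, n = 5), and the log2 fold change was -3.70 (SE 0.06, adjusted p = 1.2e-38, edgeR). COL4A2 (ENSG00000134871.19, chr13:110305812-110513209, plus strand) had 9637, 9617, 8222, 9368 and 9305 counts in T24 and 1009, 1031, 850, 923 and 884 in T24R2. Its level went from 993 ± 30.1 to 86.5 ± 4.69 CPM, again without overlap between the lines, with a log2 fold change of -3.52 (SE 0.05, adjusted p = 4.2e-40, edgeR). The tables also hold COL4A2-AS1 and COL4A2-AS2, annotated on the other strand within COL4A2, and their log2 fold changes were -3.42 and -3.58. Their mean counts were 6.03% and 3.45% of those of COL4A2 in T24 and 6.45% and 3.30% in T24R2, so antisense counts stayed in almost the same ratio to the gene, and with the strand of the libraries uncertain, reads of the gene and of its antisense partners cannot be told apart.

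The ratio of COL4A1 to COL4A2 counts within a library does not depend on scaling. It was 0.405, 0.439, 0.464, 0.468 and 0.459 in T24 and 0.405, 0.373, 0.384, 0.418 and 0.386 in T24R2, so the ranges overlapped and both chains fell by a similar factor. The difference of the log2 ratio, T24R2 minus T24, was -0.18 (exact permutation p = 0.0238, adjusted over 3 chain pairs 0.0238).

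The genes around this pair fell as well. Of the 10 tested genes whose start lay within 1 Mb of the interval and that do not overlap COL4A1 or COL4A2, 10 were lower in T24R2, with log2 fold changes from -4.42 to -0.52 and a median of -1.84, and 2 of them met the count filter through T24 only. Between 2 and 3 Mb toward the end of the long arm, 5 of 5 tested genes were lower (median -1.92), and between 3 and 4 Mb, 10 of 13 (median -1.35). On the other side, from 1 to 4 Mb away, 1 of 8 tested genes was lower and 4 were higher. Genes that met the filter through 1 line only were 4 of those 13 and 2 of those 8. Among genes that met it in both lines, 8 of 9 were lower between 3 and 4 Mb. On the other side 1 of 6 such genes was lower and 2 were higher. On the whole of chromosome 13, 111 of 271 other tested genes, or 41.0%, were lower, beside 26.5% of all genes. The window of 4 Mb was chosen after these values were seen. Both type IV genes fell more than the median of these neighbours, and the part of their position in the fall was not tested. Of the 12 other called collagen genes, the neighbourhood with the lowest median log2 fold change was that of COL17A1, where 10 of 19 tested genes within 1 Mb were lower (median -0.51).

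**Figure D3:**
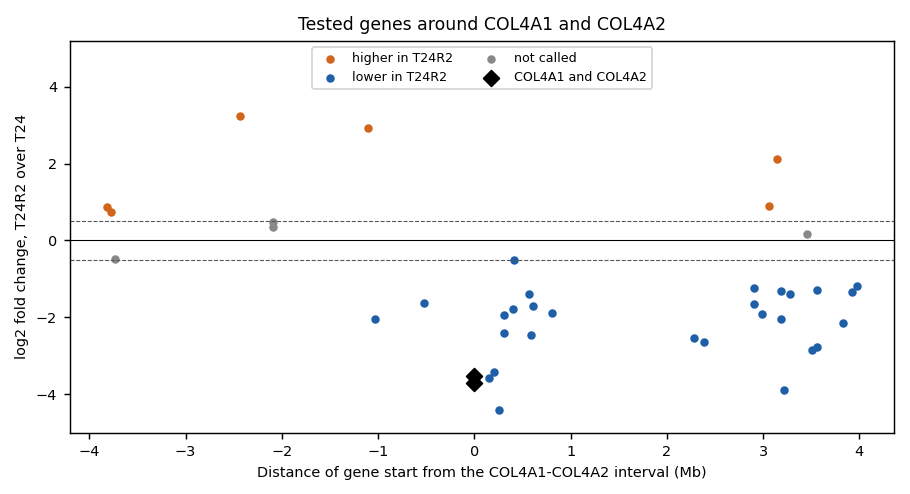
Log2 fold change of each tested gene against the distance of its start from the COL4A1-COL4A2 interval, in Mb (positive values toward the end of the long arm); dashed lines mark 0.5 on either side of 0, and diamonds are COL4A1 and COL4A2. The 10 genes within 1 Mb that overlap neither member lie between -4.42 and -0.52, and most genes from 2 to 4 Mb on the positive side lie below 0.

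COL4A5 and COL4A6, the head-to-head pair on the X chromosome whose chains form the third kind of type IV network, fell less. COL4A5 (ENSG00000188153.14) had 762, 759, 771, 714 and 740 counts in T24 and 541, 626, 494, 501 and 510 in T24R2, and COL4A6 (ENSG00000197565.17) had 405, 380, 362, 420 and 362 and then 211, 221, 199, 209 and 225. For both genes the lowest T24 library was above the highest T24R2 library. COL4A5 went from 80.8 ± 4.30 to 49.2 ± 3.56 CPM (log2 fold change -0.71, SE 0.06, adjusted p = 1.1e-13, edgeR), and COL4A6 from 41.5 ± 2.34 to 19.7 ± 1.40 CPM (log2 fold change -1.08, SE 0.08, adjusted p = 1.5e-15, edgeR). Their ratio was 1.70 to 2.13 in T24 and 2.27 to 2.83 in T24R2, without overlap (log2 difference 0.36, exact permutation p = 0.00794, adjusted 0.0119), so COL4A6 fell more than COL4A5.

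Of the remaining type IV pair, COL4A3 and COL4A4, only COL4A4 was tested, and it was higher in T24R2 at a low level. Both genes lie head to head on chromosome 2 and are known from the kidney filter. COL4A4 (ENSG00000081052.14) had 0, 11, 6, 2 and 2 counts in T24 and 57, 48, 51, 50 and 39 in T24R2. It went from 0.455 ± 0.466 to 4.52 ± 0.558 CPM, a log2 fold change of 3.28 (SE 0.36, adjusted p = 1.7e-10, edgeR), and without T24 replicate 2, which holds the 11 counts, it was 3.99. It was tested only because of its level in T24R2. COL4A3 (ENSG00000169031.21) did not pass the filter, with 2, 5, 4, 5 and 0 counts in T24 and 4, 8, 7, 3 and 9 in T24R2. The ratio of its summed counts, T24R2 over T24 after scaling, was 1.66, with an exact 95% counting interval of 0.880 to 3.25. These counts overlapped between the lines, and MFF-DT on the other strand shares 6.82% of the exon bases of COL4A3. MFF-DT had mean counts of 83.4 in T24 and 176 in T24R2 (log2 fold change 0.85), beside 3.2 and 6.2 for COL4A3. Of the 5 tested type IV genes 4 were lower and 1, COL4A4, was higher, and that higher call is a description.

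COL8A1 and COL8A2 encode the short chains of type VIII, a network collagen of vessel walls and of the cornea. COL8A1 (ENSG00000144810.16) had 1600, 1629, 1528, 1582 and 1615 counts in T24 and 1629, 1895, 1633, 1789 and 1600 in T24R2. Its CPM went from 171 ± 3.51 to 157 ± 5.35, a log2 fold change of -0.12 (SE 0.04, adjusted p = 0.0136, edgeR), below the fold limit, and the CPM ranges did not overlap. COL8A2 (ENSG00000171812.13) had 30, 33, 23, 41 and 32 counts in T24 and 1, 0, 0, 7 and 0 in T24R2. Of the 5 T24R2 libraries 3 had none, and replicate 4 held 7 of the 8 counts. The log2 fold change was -4.43 (SE 0.47, adjusted p = 7.2e-11, edgeR), and -6.58 without T24R2 replicate 4. COL8A2 met the filter through T24 only, so these values are a description. COL10A1, the growth-plate network collagen, stayed at 0 or 1 count in T24 and at 0 to 5 in T24R2.

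In the fibrillar types V, I and XI, 1 chain had most of the counts and its partners few or none. COL5A2 (ENSG00000204262.14, chr2:189031898-189225312, minus strand), a chain of the thin type V fibrils, was the only fibrillar gene above 100 CPM. It had 5020, 4950, 4704, 5239 and 4757 counts in T24 and 6172, 6118, 5783, 6156 and 5797 in T24R2. After scaling the ranges overlapped, at 531 ± 19.99 and 554 ± 15.8 CPM (log2 fold change 0.06, SE 0.04, adjusted p = 0.177, edgeR). COL5A1, which encodes the chain that type V molecules usually contain beside COL5A2, had 0, 2, 1, 1 and 6 counts in T24 and 1, 0, 0, 0 and 0 in T24R2, a ratio of summed counts of 0.0856 with a 95% counting interval of 0.00197 to 0.602. It did not pass the filter either, and was called lower when no filter was used (log2 fold change -2.89, adjusted p = 0.0499, edgeR). Per kilobase of exon, COL5A2 stood at 72.6 and COL5A1 at 0.0194 CPM in T24, and at 75.7 and 0.00164 in T24R2. The third type V gene, COL5A3 (ENSG00000080573.7), had 0, 0, 0, 0 and 1 counts in T24 and 15, 11, 11, 4 and 11 in T24R2, a ratio of summed counts of 44.5 with a 95% counting interval of 7.65 to 1792. It did not pass the filter, because 4 of the 5 T24R2 libraries and no T24 library reached the 0.989 CPM it asks for in 5 libraries, and was called higher when no filter was used (adjusted p = 1.8e-07, edgeR).

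COL1A1 (ENSG00000108821.14), the main chain of the type I fibrils of skin and bone, had 69, 67, 54, 59 and 51 counts in T24 and 17, 8, 11, 4 and 15 in T24R2. No T24R2 library came near the T24 libraries, and the log2 fold change was -2.65 (SE 0.26, adjusted p = 4.9e-12, edgeR). COL1A1 met the filter through T24 only, so these values are a description. Its partner COL1A2 had 1 count over all 10 libraries. COL11A2 (ENSG00000204248.12), a type XI chain of cartilage fibrils, had 9, 1, 1, 13 and 12 counts in T24 and 33, 39, 20, 26 and 20 in T24R2, with a log2 fold change of 1.69 (SE 0.38, adjusted p = 0.00012, edgeR) that again rests on passing the filter through T24R2, while COL11A1 had none in any library. COL27A1 (ENSG00000196739.15), a fibrillar gene with a shorter helix, had 627, 658, 659, 621 and 709 counts in T24 and 635, 595, 470, 598 and 457 in T24R2. Its CPM of 70.6 ± 5.12 and 50.6 ± 5.68 did not overlap, but the log2 fold change of -0.48 (SE 0.07, adjusted p = 5.1e-08, edgeR) stayed just inside the fold limit. Without T24 replicate 1, T24 replicate 4 or T24R2 replicate 1 it was -0.51, -0.50 and -0.53 and was called lower.

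The other fibrillar genes were at or near 0. COL2A1 of cartilage had 3 counts in all of T24 and 2 in T24R2. COL3A1 of elastic tissues had 0 in T24 and 3, 0, 0, 1 and 3 in T24R2. After scaling, its T24R2 counts were 1.998 times a floor of 3 counts over the 5 libraries of a line. COL24A1 had 0 in T24 and 3, 3, 1, 4 and 0 in T24R2, 3.14 times that floor. Both rested on 11 counts or fewer, and these multiples leave out the counting error of the T24R2 counts.

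**Figure D4:**
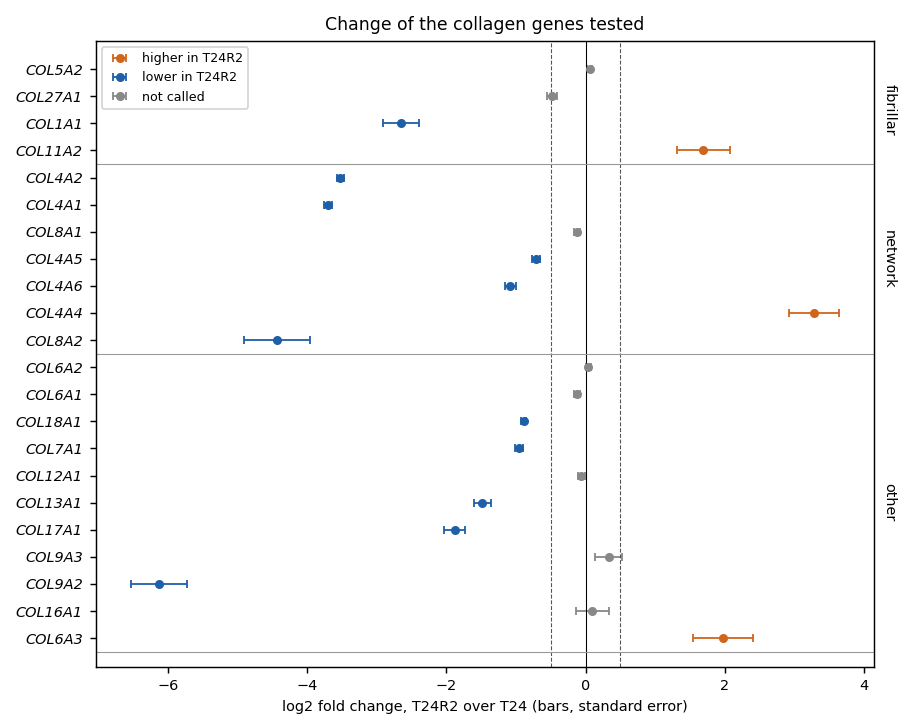
Log2 fold change of the 22 tested collagen genes, T24R2 over T24, with standard errors; colours give the call and dashed lines the fold limit of 0.5. COL9A2, COL8A2, COL4A1 and COL4A2 lie farthest to the left at -6.13 to -3.52, COL11A2, COL6A3 and COL4A4 are the 3 genes to the right, and the abundant COL6A1, COL6A2, COL5A2 and COL12A1 lie close to 0.

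Type VI collagen, which forms beaded filaments around cells, held the most abundant collagen transcripts of both lines and these did not pass the fold limit. COL6A1 (ENSG00000142156.16) had 8625, 8597, 7603, 8764 and 8116 counts in T24 and 9702, 9294, 8615, 8918 and 8248 in T24R2, and COL6A2 (ENSG00000142173.16) had 10287, 9922, 9194, 9955 and 9430 and then 12351, 11834, 11598, 11680 and 10872. Both genes overlapped between the lines after scaling. The log2 fold change of COL6A1 was -0.12 (SE 0.04, adjusted p = 0.00796, edgeR) and that of COL6A2 was 0.04 (SE 0.04, adjusted p = 0.421, edgeR). With no scaling beyond library size, COL6A1 and COL8A1 were both at 0.04 and COL12A1 at 0.10. That setting moved the median of all genes by 0.16. Relative to the median COL6A1 was at -0.13, COL8A1 at -0.14 and COL12A1 at -0.08 with and without scaling. Scaling shifts all genes by nearly the same amount, so these equal values follow from the method. Within a library the ratio of COL6A1 to COL6A2 was 0.827 to 0.880 in T24 and 0.743 to 0.786 in T24R2, without overlap (log2 difference -0.16, exact permutation p = 0.00794, adjusted 0.0119).

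COL6A3 (ENSG00000163359.17), the longer chain of most type VI molecules, was far below its partners. It had 6, 0, 3, 6 and 3 counts in T24 and 14, 19, 13, 14 and 24 in T24R2. Every T24R2 library was above every T24 library, and the log2 fold change was 1.97 (SE 0.43, adjusted p = 9.4e-05, edgeR). COL6A3 met the filter through T24R2 only, so these values are a description. Per kilobase of exon it stood at 0.0180 CPM in T24 and 0.0724 in T24R2, where COL6A1 was at 162 and 149. COL6A5 had no count in any library and COL6A6 had 1 in each line, so no gene of the longer type VI chains came near the level of COL6A1 and COL6A2.

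The anchoring-fibril collagen, the 2 tested transmembrane collagens and the multiplexin of basement membranes also fell, by smaller factors than COL4A1 and COL4A2. COL7A1 (ENSG00000114270.18), the anchoring-fibril collagen under stratified epithelia, had 2677, 2446, 2296, 2767 and 2591 counts in T24 and 1840, 1683, 1289, 1418 and 1420 in T24R2. It fell from 275 ± 15.9 to 141 ± 18.1 CPM, a log2 fold change of -0.96 (SE 0.06, adjusted p = 4.9e-18, edgeR). COL17A1 (ENSG00000065618.21), a transmembrane collagen of hemidesmosomes, had 135, 129, 115, 110 and 148 counts in T24 and 44, 49, 29, 45 and 35 in T24R2 (log2 fold change -1.88, SE 0.15, adjusted p = 2.0e-14, edgeR). COL13A1 (ENSG00000197467.17), a transmembrane collagen of cell-matrix contacts, had 210, 178, 176, 204 and 235 and then 109, 91, 65, 82 and 73 (log2 fold change -1.48, SE 0.12, adjusted p = 4.5e-14, edgeR). In all 3 genes the libraries of the lines were apart. The transmembrane collagens COL23A1, with 1 count in each line, and COL25A1, with 0 in T24 and 1, 1, 5, 2 and 3 in T24R2, did not pass the filter. The scaled T24R2 counts of COL25A1 were 3.42 times the floor, which leaves out their counting error.

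COL18A1 (ENSG00000182871.16, chr21:45405165-45513720, plus strand), the basement membrane multiplexin from which endostatin is cut, had 5399, 5225, 4532, 5112 and 5029 counts in T24 and 3366, 3388, 2939, 3244 and 2986 in T24R2. It fell from 544 ± 16.0 to 294 ± 9.82 CPM, with a log2 fold change of -0.89 (SE 0.04, adjusted p = 9.0e-22, edgeR). SLC19A1 on the other strand shares 18.5% of its exon bases, more than for any other member, and had a log2 fold change of -0.66 and mean counts of 36.5% and 42.7% of those of COL18A1. Reads of the 2 genes over that stretch cannot be told apart. The other multiplexin, COL15A1, had no count.

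The FACIT collagens, which sit on the surface of other fibrils, gave 4 tested genes, of which COL9A2 alone was called. COL12A1 (ENSG00000111799.22) had 1841, 1897, 1904, 1935 and 1795 counts in T24 and 2094, 2272, 2012, 2250 and 1870 in T24R2, and its 202 ± 10.9 and 193 ± 6.23 CPM overlapped (log2 fold change -0.06, SE 0.05, adjusted p = 0.208, edgeR). COL9A2 (ENSG00000049089.15), a type IX chain of cartilage, had 55, 47, 61, 64 and 52 counts in T24 and 1, 0, 2, 1 and 0 in T24R2. It was close to absent from T24R2, with a log2 fold change of -6.13 (SE 0.40, adjusted p = 6.3e-17, edgeR). Its summed counts were 81.5 times higher in T24 with a 95% counting interval of 31.5 to 301. COL9A2 met the filter through T24 only, so these values are a description. Its partner COL9A3 was not called, with 54, 62, 43, 41 and 40 counts in T24 and 99, 71, 44, 62 and 77 in T24R2 (log2 fold change 0.33, SE 0.19, adjusted p = 0.10, edgeR), and COL9A1 had no count. COL16A1 had 32, 31, 25, 64 and 27 and then 45, 35, 42, 51 and 51 counts, with a log2 fold change of 0.10 (SE 0.23, adjusted p = 0.687, edgeR) and 0.41 without T24 replicate 4. COL14A1, COL19A1, COL21A1 and COL22A1 had at most 3 counts in any library, COL20A1 had 5 counts in all of T24 and 13 in T24R2, and the unclassified COL26A1 and COL28A1 had at most 3 in any library.

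Of the 22 members that did not pass the filter, 15 had at most 3 counts in every library and 4 of these, COL6A5, COL9A1, COL11A1 and COL15A1, had none. In a line of 5 libraries a count of 0 allows up to 3 counts. At this depth the silent members were not detectable, which does not show that they are absent.

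The genes that fold, export, cut, crosslink and bind collagen were counted from 8 lists of 66 genes. Of the 57 tested, 27 were lower, beside the background of 26.5% of all genes, and 8 were higher, beside 24.9%, with a median log2 fold change of -0.44. Of these calls 4 higher and 4 lower were genes that met the count filter through 1 line only. This leaves 23 lower and 4 higher among the 49 that met it in both. Beside them, 3366 were lower and 2983 higher of all 13559 genes that met it in both. In the list of folding and modification in the endoplasmic reticulum, 11 of 16 tested genes were lower, none was higher, and the median was -0.83. P4HA2, a catalytic chain of the prolyl 4-hydroxylase that stabilizes the helix, had the largest fall, from 127 ± 2.004 to 23.7 ± 1.61 CPM (log2 fold change -2.42, SE 0.06, adjusted p = 2.9e-31, edgeR). PPIB, a prolyl isomerase and the gene of the list with the highest level per kilobase, had a log2 fold change of -0.02 (SE 0.04, adjusted p = 0.75, edgeR). Its sign turned with no scaling, which shifts all genes nearly alike. PPIB was at -0.03 relative to the median of all genes in both settings. Of 4 genes named after their values were seen, P4HA1, P4HB and PLOD2 changed by -2.35, -1.74 and -2.09 on the log2 scale. P4HA1 encodes an alternative catalytic chain of prolyl 4-hydroxylase, P4HB the beta chain of that enzyme and PLOD2 a lysyl hydroxylase. SERPINH1, the collagen-specific chaperone HSP47, was at 168 ± 6.96 and 186 ± 5.40 CPM (log2 fold change 0.14) and was not called.

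Of 9 tested genes of export from the endoplasmic reticulum, 1 was higher and 1 lower, beside 24.9% and 26.5% of all genes. MIA2, which helps load procollagen into transport carriers, rose with a log2 fold change of 0.83 (SE 0.09, adjusted p = 2.2e-11, edgeR), and the coat gene SEC23A, also the highest of the list per kilobase, fell with -0.84 (SE 0.05, adjusted p = 3.0e-19, edgeR). Of 7 tested genes of procollagen cleavage, 2 were higher and 3 lower, beside the same shares of all genes. All but 1 of these calls are of genes that met the filter through 1 line only and are a description, ADAMTS2 through T24R2 and ADAMTS3, TLL1 and PCOLCE2 through T24. ADAMTS2, which cuts the amino end of procollagens, went from 0.277 ± 0.223 to 2.14 ± 0.148 CPM (log2 fold change 2.88, SE 0.42, adjusted p = 8.0e-08, edgeR). PCOLCE2, an enhancer of the cut at the other end, had 58, 32, 51, 36 and 41 counts in T24 and 0 in all T24R2 libraries. Its scaled T24 counts were 84.9 times a floor of 3 counts over the line. BMP1, the protease of that cut and the highest of the list per kilobase, was at 40.3 ± 1.21 and 49.5 ± 2.57 CPM and not called (log2 fold change 0.30).

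Of 5 tested crosslinking genes, 3 were lower and none was higher, beside 26.5% and 24.9% of all genes. LOX, the lysyl oxidase, had the largest fall, from 93.8 ± 11.8 to 11.8 ± 1.80 CPM (log2 fold change -2.98, SE 0.09, adjusted p = 2.1e-28, edgeR). TGM2, a transglutaminase and the highest per kilobase, went from 1915 ± 60.8 to 639.6 ± 34.0 CPM (log2 fold change -1.58, SE 0.04, adjusted p = 4.7e-30, edgeR). LOXL2, a further lysyl oxidase named after its values were seen, was at 903 ± 33.1 and 884 ± 22.3 CPM. Its log2 fold change of -0.03 turned sign with no scaling, which shifts all genes nearly alike. LOXL2 was at -0.05 relative to the median of all genes in both settings.

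Of 8 tested receptors, 4 were lower and 3 higher, beside 26.5% and 24.9% of all genes. The largest fall was that of MRC2, an endocytic receptor for collagen, from 514 ± 26.3 to 29.8 ± 2.52 CPM (log2 fold change -4.11, SE 0.06, adjusted p = 9.1e-40, edgeR), with 10.3% of its exon bases shared with genes on the other strand. The largest rise was that of ITGA11, the alpha 11 chain of an integrin for fibrillar collagens, with 53, 34, 62, 72 and 31 counts in T24 and 728, 825, 842, 751 and 702 in T24R2. Its log2 fold change was 3.71 (SE 0.12, adjusted p = 2.1e-27, edgeR), and no library of the lines overlapped. ITGB1, the beta chain shared by the collagen integrins and the highest per kilobase, fell with -1.13 (SE 0.04, adjusted p = 2.3e-24, edgeR). ITGA2 and DDR2, 2 further receptors named after their values were seen, changed by -2.72 and 2.48 on the log2 scale. DDR2 and ITGA10, which are 2 of the 3 higher receptors, met the filter through T24R2 only.

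All 3 basement membrane partners were called, 2 lower and 1 higher, where 51.4% of all genes were called. HSPG2, which encodes perlecan, fell from 491 ± 23.9 to 3.76 ± 0.936 CPM, with 4790, 4415, 4392, 4859 and 4354 counts in T24 and 39, 30, 50, 36 and 47 in T24R2 (log2 fold change -7.04, SE 0.08, adjusted p = 1.9e-42, edgeR). NID1, a nidogen that links type IV collagen to laminin and the highest per kilobase, went from 251 ± 13.1 to 89.3 ± 1.90 CPM (log2 fold change -1.49, SE 0.05, adjusted p = 2.1e-27, edgeR). NID2, which met the filter through T24R2 only, went from 1.11 ± 0.401 to 3.69 ± 1.26 CPM (log2 fold change 1.71, SE 0.30, adjusted p = 3.6e-06, edgeR). Genes on the other strand share 11.7% of the exon bases of HSPG2 and 30.7% of those of NID2. Of the fibril-binding proteoglycans only BGN, biglycan, was tested, with 36, 26, 30, 32 and 23 counts in T24 and 1, 0, 0, 0 and 0 in T24R2, a ratio of 172 with a 95% counting interval of 30.3 to 6827. It passed the filter through T24 alone. The fitted log2 fold change was -6.69, and -7.98 without T24R2 replicate 1, which holds the 1 count.

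Of 8 tested regulators of collagen genes, 2 were lower and 1 higher, beside 26.5% and 24.9% of all genes. Their median log2 fold change was -0.15, and the CPM of the lines did not overlap for 7 of them, beside 61.2% of all genes. TGFB1, the growth factor, fell with -0.98 (SE 0.05, adjusted p = 3.5e-21, edgeR), its receptor gene TGFBR1 rose with 0.59 (SE 0.08, adjusted p = 3.0e-08, edgeR), and SMAD3, the signal carrier with the highest level per kilobase, fell with -0.64 (SE 0.04, adjusted p = 3.5e-17, edgeR). With no scaling beyond library size SMAD3 was at -0.48 and no longer called.

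**Figure D5:**
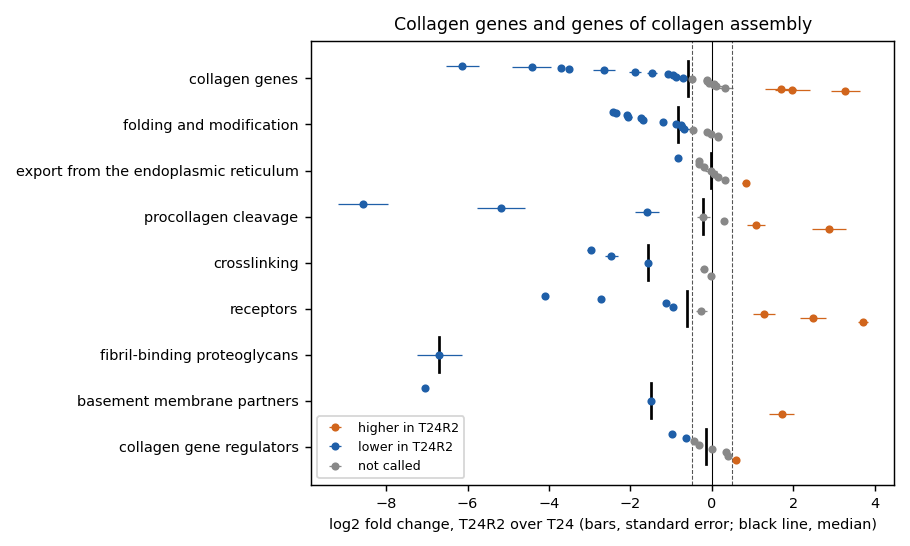
Log2 fold change with standard error of the tested collagen genes and of the tested genes of the 8 lists of collagen assembly; each dot is a gene, colours give the call, black lines the median of a list and dashed lines the fold limit of 0.5. The folding and crosslinking lists lie mostly on the left, with medians of -0.83 and -1.58, and the receptor list spreads to both sides.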

How the data were processed

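RNA-seq of 5 T24 and 5 T24R2 libraries was analysed. Per the labels and the study's methods, the authors aligned reads to hg38 with STAR 2.7.0, removed duplicates and multiply mapped reads with SAMtools 1.10 and assigned fragments to GENCODE release 39 genes with featureCounts 2.0.1 at strand option 1, although the kit is not described as strand-specific. The deposited values are raw counts per gene, without normalization, and columns of fold changes were not among them.

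Gene identifiers were matched to symbols for 61415 of 61533 genes. No row lacked an identifier (0 rows). Counts were fitted in R 4.3.3 with edgeR 4.0.16 (filterByExpr, which asked for about 0.989 CPM in 5 libraries and 15 counts in all, TMM, glmQLFit, glmQLFTest, no covariate), with SE taken as the fold change over the root of F, and tested on simulated data. CPM use TMM-scaled library sizes, and errors are SD over 5 libraries. Chain ratios used exact two-sided permutation tests, with a smallest p of 0.00794 for 5 against 5. Counting intervals are exact binomial at 95% and cover counting error only, since no molecular identifiers are described. Multiples of a floor leave out the counting error of the line that has counts. Exon overlaps came from the tables' coordinates with bedtools 2.31.1. Repeats were read from GENCODE release 44 coding sequences, promoter windows from RefSeq (GRCh38.p14), where COL1A1, COL1A2, COL2A1, COL3A1, COL5A2, COL6A1, COL6A5, COL8A1, COL9A3, COL14A1, COL20A1 and COL22A1 had no entry. Other steps used Python 3.11.15, numpy 2.4.6, pandas 2.3.3, SciPy 1.17.1 and matplotlib 3.10.9.

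The members, lists and tests were chosen with earlier results of these data known. All members could be named, and for each pathway list the largest rise, the largest fall and the highest level per kilobase. COL4A2-AS1, COL4A2-AS2, MFF-DT and 7 pathway genes so described were named after their values were seen. Alternatives were no scaling, upper-quartile scaling, DESeq2 1.42.0 without and with apeglm 1.24.0 shrinkage, limma-voom (limma 3.58.1), other count filters, a replicate block, other fold limits, removal of genes overlapped from the opposite strand and leaving out each library. Replicates differed by more than sampling noise and none was merged.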

Additional observations from a re-analysis of the deposited data

Results flagged for a closer look

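Within each line the highest and lowest library was checked against the other 4. The check ran on 51 groups of 5 libraries and picked out 6, and chance alone picks out about 1 in 20 groups. COL4A2 was at 939.5 CPM in T24 replicate 3, below the others, which reached 1012 CPM. The same library was the highest for COL4A5, at 88.1 CPM beside 76.8 to 79.9. COL4A6 reached 22.1 CPM in T24R2 replicate 5, beside 18.6 to 19.4. COL8A2 was at 0.624 CPM in T24R2 replicate 4, where the others were at 0 to 0.0918, and its fold change depends on that library as given with its values. COL16A1 was at 6.88 CPM in T24 replicate 4, beside 2.86 to 3.32. The collagen share of all counts was 0.525% in T24 replicate 4, beside 0.498% to 0.503%. The causes were not tested.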

How the results depend on the processing

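The 3 higher and 11 lower collagen genes were also the counts under no scaling, upper-quartile scaling, DESeq2 without shrinkage and limma-voom. Without a count filter 7 were higher, the added 4 being COL3A1, COL5A3, COL24A1 and COL25A1, all at low counts, and 12 were lower, the added gene being COL5A1 (adjusted p = 0.0499). A mean of at least 100 counts left 7 collagen genes called, 7 lower and 0 higher, 3 higher genes in the pathway lists and 4991 of all genes (2350 higher, 2641 lower), because fewer genes were tested. At a log2 limit of 1, 4211 of all genes were called (1918 higher, 2293 lower), and with no fold limit 6128 of all genes and 15 pathway genes were higher. No scaling beyond library size raised the higher share of all called genes from 48.5% to 60.3%.

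Signs turned for 5 genes that were not called, mostly under scalings that moved the median of all genes, by 0.16 with no scaling and 0.07 with upper-quartile scaling. With no scaling COL6A1 and COL8A1 were at 0.04, COL12A1 at 0.10, LOXL2 at 0.13 and PPIB at 0.15. With upper-quartile scaling COL12A1 was at 0.01, LOXL2 at 0.04 and PPIB at 0.06. Relative to the median of all genes these 5 were at -0.13, -0.14, -0.08, -0.05 and -0.03 under TMM, no scaling and upper-quartile scaling alike. A change of scaling shifts all genes by nearly the same amount, so these equal values follow from the method and are no separate check. PPIB was at 0.01 with a mean of at least 100 counts and ran from -0.05 to 0.01 when each library was left out. Leaving out each library in turn called 14 to 16 collagen genes and kept the call of 21 of 22 tested collagen genes, COL27A1 being the exception. Some of these runs called 4 genes higher, beside 3 with all libraries, so a gene outside the 22 was tested and called there. The collagen share of T24 was 0.52% of counts outside the mitochondrial genome.

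The replicate numbers did not pair the libraries: deviations of same-numbered libraries correlated at -0.021 to 0.0155, and 3 of 10 libraries correlated best with their own number. With the replicate block 14 collagen genes were called, 3 higher and 11 lower, and the chain ratios were -0.18 (adjusted p = 0.125) for COL4A1 to COL4A2, 0.36 (0.0938) for COL4A5 to COL4A6 and -0.16 (0.0938) for COL6A1 to COL6A2 by exact sign-flip tests, whose smallest p of 0.0625 cannot pass the threshold.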
